A study of Mus musculus with 8 samples.

Results

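The chemokine system of cold-exposed brown fat was described across 56 probe sets, which were all of the 21115 on the array whose gene symbol was Ccl, Cxcl, Xcl, Cx3cl, Ccr, Cxcr, Xcr, Cx3cr or Ackr followed by a number. They comprised 34 ligands, 18 signalling receptors and 4 atypical receptors. Brown adipose tissue, which releases energy as heat in the cold, came from 8 mice, and its RNA was hybridised to Affymetrix Mouse Gene 1.1 ST arrays. The 4 GRBATKO mice were, by that name, knockouts of the glucocorticoid receptor (gene Nr3c1) in brown fat, and the 4 control mice were labelled wild type in the sample records and Flox in the design text. All 8 mice were between 16 and 20 weeks of age when they entered the cold and spent 1 week at 5 °C, so no group at another temperature was analysed here. The sources used here do not give the Cre line or the cells in which it acts, and the tissue was profiled whole, with its vessels, stroma and immune cells.

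Nr3c1 checked the labels. Its log2 intensity was between 8.51 and 8.68 in the 4 control mice and between 7.61 and 7.83 in the 4 GRBATKO mice, and it fell by 0.86 on the log2 scale (SE 0.08, limma adjusted p = 0.00697). The protocol field names macrophages of the peritoneum as the RNA source, against the tissue field. This matters for chemokines, which macrophages make. The brown fat gene Ucp1 lay between 12.97 and 13.07 on all 8 arrays, and all 10 brown adipocyte markers were above the 95th percentile of the olfactory and vomeronasal receptors described below, so the arrays carry the marker profile of brown fat. Array medians lay between 4.42 and 4.44. The arrays of control 1 and control 4 had higher 25th percentiles (3.03 and 3.05) than the other 6 (2.84 to 2.90). The mean of 10 skeletal muscle markers, centred on the 8 mice, was 2.52 in control 3 and 1.33 in GRBATKO 4 against -0.87 to 0.03 elsewhere, and T and B cell markers stood apart in GRBATKO 2. Array rows followed genotype, so row and genotype cannot be told apart. Nothing in the labels says that each array is a separate animal's tissue, although they are called mice here, so the p-values speak of array-to-array spread, some of which may be technical.

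Chemokines are small secreted proteins that bind G protein-coupled receptors on leukocytes and steer them along a gradient, and they are grouped as CC, CXC, XC and CX3C by the spacing of their first cysteines. Some are made at rest to hold or home cells, and others are switched on by NF-kappaB or interferon signals during inflammation. Atypical receptors bind chemokines without G protein signalling and take them up or store them. Glucocorticoids are known to repress many inflammatory chemokine genes, in part through interference of their receptor with NF-kappaB. In fat, chemokines are known mainly for drawing monocytes, eosinophils and lymphocytes into the tissue.

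Promoter sequence was available for 42 of the 56 members, in 46 windows of the 250 bases before an annotated start (RefSeq, GRCm38.p6). An NF-kappaB motif (GGG, any 2 bases, then TTTCC, on either strand) was present in 6 of the 46 windows (13%), those of Cxcl1, Cxcl2, Cxcl3, Ccl9, Ccl20 and Ccr3, and in 1.41% of all 32851 windows of the table. The TATA box, TATAAA on either strand, was present in 14 of 46 (30.4%) and in 12.4% of all. A palindromic glucocorticoid receptor motif (GNACA, any 3 bases, then TGTNC) was in 0 of 46 and in 0.387% of all, which says only that these letters are not in these windows. The windows are shown for the neutrophil attractants Cxcl1 (chr5:90890995-90891244, plus strand), Cxcl2 (chr5:90903649-90903898, plus strand) and Cxcl3 (chr5:90785851-90786100, plus strand), neighbouring genes that each carry the NF-kappaB motif. Those of Ccl12 (chr11:82101595-82101844, plus strand) and Cxcl13 (chr5:95956689-95956938, plus strand) are shown because these members differed most between the genotypes. Each runs 5′ to 3′ up to the base before the start, and capitals mark the 3 motifs, which overlapped nowhere in these 5 windows.
Cxcl1: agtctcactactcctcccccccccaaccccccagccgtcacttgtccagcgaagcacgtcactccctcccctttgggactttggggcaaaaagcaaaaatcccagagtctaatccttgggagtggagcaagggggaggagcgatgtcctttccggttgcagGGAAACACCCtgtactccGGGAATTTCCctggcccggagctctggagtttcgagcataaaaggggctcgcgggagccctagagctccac
Cxcl2: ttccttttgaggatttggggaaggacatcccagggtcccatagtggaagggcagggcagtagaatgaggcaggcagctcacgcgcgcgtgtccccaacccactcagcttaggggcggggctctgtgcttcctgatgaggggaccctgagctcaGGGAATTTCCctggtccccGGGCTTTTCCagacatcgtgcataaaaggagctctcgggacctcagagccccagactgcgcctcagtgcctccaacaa
Cxcl3: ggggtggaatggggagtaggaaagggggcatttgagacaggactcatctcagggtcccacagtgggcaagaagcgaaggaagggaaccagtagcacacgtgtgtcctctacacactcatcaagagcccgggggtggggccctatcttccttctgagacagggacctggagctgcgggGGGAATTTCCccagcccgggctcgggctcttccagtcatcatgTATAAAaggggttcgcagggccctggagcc
Ccl12: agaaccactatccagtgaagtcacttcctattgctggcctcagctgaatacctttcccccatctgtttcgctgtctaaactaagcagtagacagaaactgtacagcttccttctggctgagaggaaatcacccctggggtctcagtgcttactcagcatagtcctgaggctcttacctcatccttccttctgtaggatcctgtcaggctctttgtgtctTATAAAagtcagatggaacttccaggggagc
Cxcl13: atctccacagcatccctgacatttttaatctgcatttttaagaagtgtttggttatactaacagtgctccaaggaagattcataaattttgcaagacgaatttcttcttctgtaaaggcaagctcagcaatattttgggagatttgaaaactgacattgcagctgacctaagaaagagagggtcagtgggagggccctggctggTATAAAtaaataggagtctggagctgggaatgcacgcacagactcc
The NF-kappaB motifs lay at -89 to -80 on the minus strand and -71 to -62 in Cxcl1, at -97 to -88 and -78 to -69 in Cxcl2, and at -73 to -64 in Cxcl3, counted back from the start. The TATA box lay at -30 to -25 in Cxcl3, at -31 to -26 in Ccl12 and at -46 to -41 in Cxcl13. A match of letters is a description and not a site in use.

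None of the 56 members passed an adjusted p of 0.05 over all 21115 probe sets, where 5 probe sets did (0.0237%; 0.00474% higher and 0.0189% lower in GRBATKO). At an unadjusted p under 0.05 there were 3 members, Ackr2 and Ccl12 on the lower side and Cxcl13 on the higher side in GRBATKO, against 8.62% of all probe sets (4.22% higher and 4.4% lower). The 4 GRBATKO mice did not overlap with the 4 control mice in 1 member, Ccl12, which was lower, against 5.64% of all probe sets (2.42% lower and 3.22% higher). Both shares of the 56 lay below the background in this fit. For the unadjusted p that order turned after repeated quantile normalization (6 of 56, against 8.38% of all probe sets), with the lymphocyte marker mean as a covariate (5 of 56, against 7.87%), without control 4 (5 of 56, against 7.12%) and with flat probe sets left out (3 of 18, against 9.62%). The median difference over the members was -0.04 on the log2 scale, with 24 higher and 32 lower, and the median over all probe sets was -0.0022. The 95% intervals of 46 members lay within a 1.5-fold difference either way (82.1%, against 89.2% of all probe sets), and those of 55 within a 2-fold difference; Cxcl13 was the exception. The count without overlap was 4 without control 1 or control 4, 3 without control 2, GRBATKO 1 or GRBATKO 2, and 2 without GRBATKO 3. Fewer mice overlap less by construction, and 7.92% to 11.1% of all probe sets did not overlap in those sets of 7 arrays. Leaving out both control 1 and control 4 put the share of members without overlap just above that of all probe sets, as given in the last section.

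**Figure D1:**
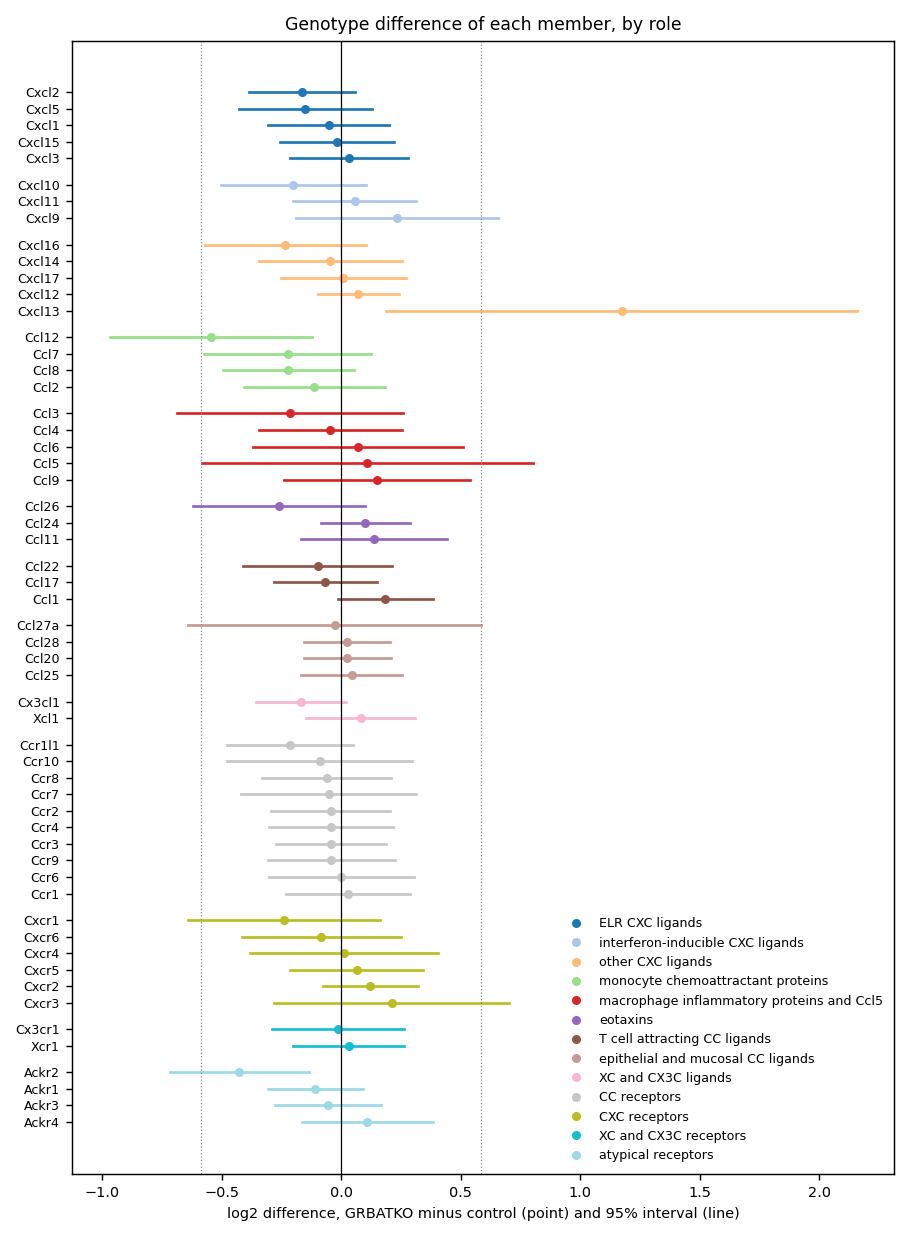
The log2 difference of each of the 56 members between 4 GRBATKO and 4 control mice (point) is drawn with its 95% limma interval (line), in 13 groups by role, with 1.5-fold marked by dotted lines. The interval lies beyond 0 for Cxcl13, Ccl12 and Ackr2, and 46 of the 56 lie within the dotted lines.

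The intensities of the members spanned from 8.25 for Cxcl12 to 2.15 for Cxcl15 (log2, mean of 8 mice), and 16 of the 56 were above the median of all probe sets. No detection call was available, so 1289 olfactory and vomeronasal receptor probe sets, genes known from sensory neurons, served as a reference for low values, chosen after the values were seen. Their median was 2.25 and their 95th percentile 3.30. Of the members, 33 lay above that percentile, 23 of 34 ligands and 10 of 22 receptors. The other 23 could not be told from this low range. An intensity also depends on a probe set's own binding, so the order is one of intensities and not of transcript number. Of the 55 neighbouring pairs in that order, 52 differed by less than the spread between mice; the gaps from Cxcl12 to Cxcl14, from Ccl11 to Cxcl9 and from Ccr2 to Ccl17 were wider.

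**Figure D2:**
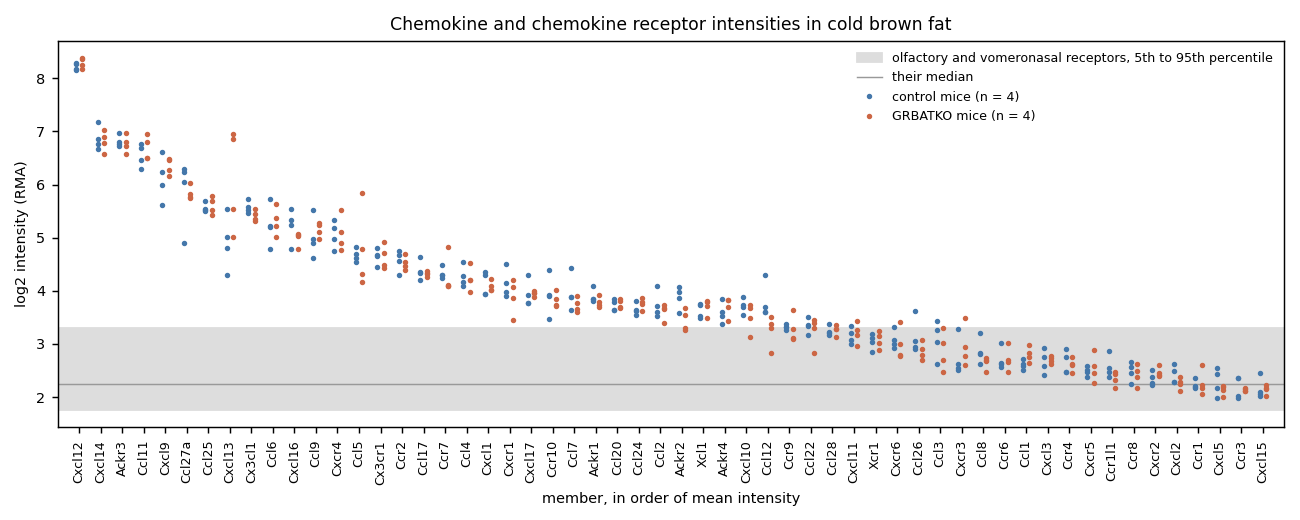
Log2 intensity of each of the 56 members is drawn for every mouse (blue, 4 control; orange, 4 GRBATKO) in order of the mean, over a grey band from the 5th to the 95th percentile of olfactory and vomeronasal receptors. Cxcl12 stands alone near 8.25, and 23 members have means inside or below the band, whose upper edge is 3.30.

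Among the CXC ligands that are made at rest, Cxcl12, which holds stem cells and lymphocytes through Cxcr4, had the highest intensity of all members. Its values were 8.15, 8.26, 8.28 and 8.18 in control 1 to 4 and 8.25, 8.38, 8.17 and 8.36 in GRBATKO 1 to 4. The groups overlapped and the difference was 0.07 (SE 0.08, 95% interval -0.10 to 0.24), and its range over the 8 mice, 0.22, was narrower than that of all but Ccl20. Cxcl14, a chemokine of stromal and epithelial cells, measured 7.18, 6.76, 6.87 and 6.66 in control and 6.57, 7.03, 6.90 and 6.79 in GRBATKO mice. The groups overlapped, with GRBATKO 1 below all control mice and control 1 above all GRBATKO mice, and a difference of -0.05 (SE 0.13). Cxcl16, which is held on the membrane of macrophages and binds Cxcr6, measured 5.33, 5.54, 5.23 and 4.78 in control and 5.06, 5.06, 5.03 and 4.79 in GRBATKO mice. The GRBATKO values fell inside the control range, and the difference was -0.23 (SE 0.15, limma adjusted p = 0.698). Cxcl17, a mucosal chemokine, differed by 0.01 (SE 0.12).

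Cxcl13, the ligand of Cxcr5 that draws B cells and is known to be made by macrophages of the body cavities and by follicular stroma, showed the largest difference of the 56 and the widest range over mice, 2.65. Its values were 5.55, 4.81, 5.01 and 4.30 in control 1 to 4, and 5.54, 6.86, 6.95 and 5.02 in GRBATKO 1 to 4. GRBATKO 2 and GRBATKO 3 lay above every other mouse, while GRBATKO 1 and GRBATKO 4 lay within the control range. Control tissue averaged 4.92 ± 0.52 (SD, n = 4). GRBATKO tissue averaged 6.09 ± 0.96 (SD, n = 4), a 2.26-fold difference (log2 1.17, SE 0.44, 95% interval 0.19 to 2.16) that did not pass (limma adjusted p = 0.536; two-sided exact permutation test, p = 0.0857). Of these mice GRBATKO 2 was also high in the means of lymphocyte markers and GRBATKO 3 was not. The T cell marker mean, centred on the 8 mice, was 1.0 in GRBATKO 2 and -0.13 in GRBATKO 3. The B cell marker mean was 1.06 and -0.18. The T cell marker Trac was high in both mice, at 6.48 in GRBATKO 2 and 5.58 in GRBATKO 3. It was 3.83 to 4.47 in control mice, 4.49 in GRBATKO 1 and 4.44 in GRBATKO 4. No other measured T cell marker lay above all control mice in GRBATKO 3. The macrophage marker mean was 0.05 in GRBATKO 2 and 0.31, the highest of all mice, in GRBATKO 3. Cxcl13 differed by 0.92 (SE 0.44) without GRBATKO 2, by 0.89 (SE 0.43) without GRBATKO 3, and by 1.15 (SE 0.23, limma adjusted p = 0.288) with the macrophage marker mean as a covariate. The part of any cell type in this difference was not tested. In whole tissue, more cells of a type and more RNA per cell cannot be told apart.

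**Figure D3:**
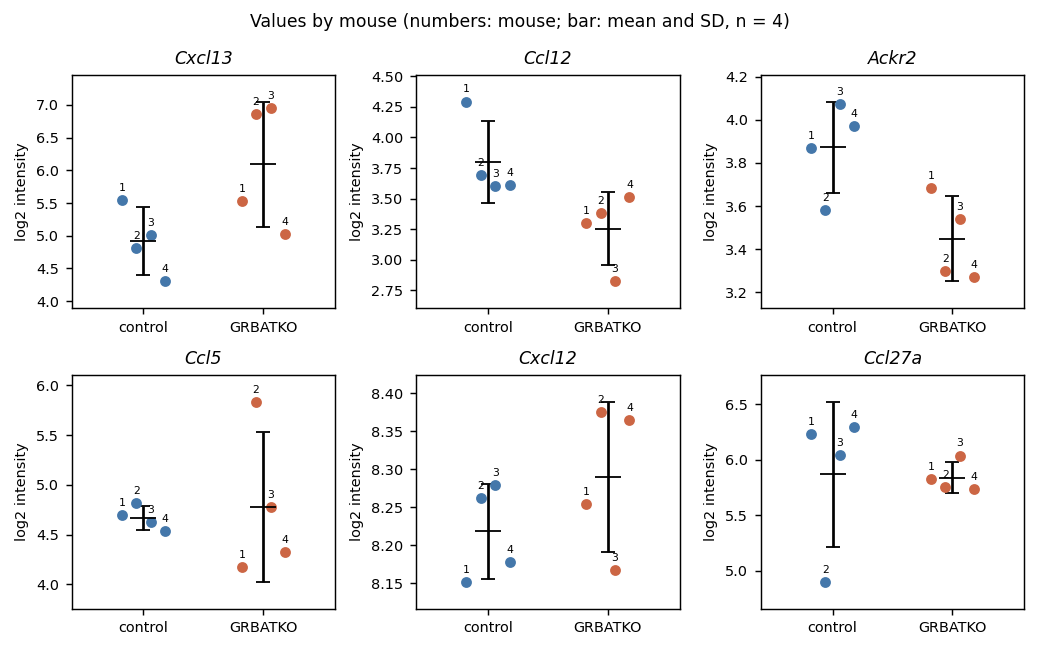
Log2 intensity of 6 members is drawn by mouse, with the number of each mouse and the mean and SD of 4. GRBATKO 2 and GRBATKO 3 are the 2 high points of Cxcl13, all GRBATKO mice lie below all control mice for Ccl12, and single mice set the spread of Ccl5 (GRBATKO 2) and Ccl27a (control 2).

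The monocyte chemoattractant proteins, which recruit monocytes chiefly through Ccr2, were of low intensity, and all 4 had a lower mean in GRBATKO tissue (-0.55 to -0.11), with none past the threshold. Ccl12 measured 4.29, 3.70, 3.60 and 3.61 in control 1 to 4 and 3.30, 3.38, 2.82 and 3.51 in GRBATKO 1 to 4. Every GRBATKO mouse lay below every control mouse. The difference was -0.55 (SE 0.19, 95% interval -0.97 to -0.12), with limma adjusted p = 0.507 and p = 0.0286 in the two-sided exact permutation test, the smallest that 4 against 4 allows. It was -0.38 without control 1, the highest mouse, and ranged to -0.63 without GRBATKO 4. The GRBATKO mean of Ccl12, 3.25, was within the low range, whose 95th percentile was 3.30, so no fold is given. Ccl7 measured 3.88, 3.89, 3.64 and 4.43 in control and 3.60, 3.66, 3.78 and 3.90 in GRBATKO mice. These overlapped, with a difference of -0.22 (SE 0.16), which was -0.068 without control 4. Ccl8, which in mice acts on Ccr8, measured 2.83, 2.81, 3.20 and 2.62 against 2.68, 2.73, 2.69 and 2.48, inside the low range, with a difference of -0.22 (SE 0.12). Ccl2, the main Ccr2 ligand, differed by -0.11 (SE 0.13, 95% interval -0.41 to 0.18).

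Ccl12 lies in a row of chemokine genes on the chromosome, and its neighbours did not share its direction throughout. The nearest measured gene on one side, Ccl11, differed by 0.14, and that on the other side, Ccl8, by -0.22. Ccl1, the next beyond Ccl8, which draws T cells through Ccr8, measured 2.58, 2.51, 2.63 and 2.71 in control and 2.75, 2.64, 2.97 and 2.82 in GRBATKO mice. GRBATKO 1, 3 and 4 lay above all control mice, but the values were inside the low range, and the difference of 0.18 (SE 0.09) gave limma adjusted p = 0.609.

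The eotaxins recruit eosinophils through Ccr3. Ccl11 was the fourth brightest member, with 6.29, 6.76, 6.69 and 6.47 in control and 6.50, 6.79, 6.96 and 6.50 in GRBATKO mice. The groups overlapped, and the difference was 0.14 (SE 0.14, 95% interval -0.17 to 0.44). Ccl24 differed by 0.10 (SE 0.08). Ccl26 measured 2.90, 3.05, 2.94 and 3.63 against 2.79, 3.07, 2.70 and 2.91, and control 4 alone lay outside the GRBATKO range, so that its difference of -0.26 (SE 0.16) was -0.096 without that mouse. Ccr3, the eotaxin receptor, was near the bottom of the order at 2.16, and of the 5 eosinophil markers 1 was above the low reference.

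Of the macrophage inflammatory proteins and Ccl5, which act through Ccr1 and related receptors on monocytes and T cells, 3 of 5 had a higher mean in GRBATKO tissue and none passed. Ccl6 measured 5.73, 5.22, 5.21 and 4.78 in control and 5.22, 5.36, 5.63 and 5.01 in GRBATKO mice. Ccl9 measured 5.53, 4.97, 4.90 and 4.61 in control and 5.24, 5.10, 5.28 and 4.98 in GRBATKO mice. In both, control 1 was high and control 4 low, the groups overlapped, and the differences were 0.07 (SE 0.20) and 0.15 (SE 0.17). Macrophage markers had the same low mouse: their centred mean was -0.32 for control 4, from 0.05 to 0.16 for the other control mice and from -0.24 to 0.31 for GRBATKO mice, with 16 of 16 markers above the low reference, 8 of them higher in GRBATKO tissue and 8 lower. Their summed intensity was 9.88 to 10.43 in control and 9.99 to 10.65 in GRBATKO mice (log2), and their part was not tested. Ccl3 and Ccl4, the classical members of the group, differed by -0.21 (SE 0.21) and -0.05 (SE 0.13).

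Ccl5, made by T and NK cells, was set apart by 1 mouse. It measured 4.70, 4.82, 4.62 and 4.54 in control and 4.17, 5.84, 4.78 and 4.32 in GRBATKO mice, with GRBATKO 2 a full log2 unit above all others. The difference was 0.11 (SE 0.31) and turned to -0.24 (SE 0.15) without GRBATKO 2.

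The interferon-inducible ligands of Cxcr3 went both ways. Cxcl9 measured 5.99, 6.60, 6.23 and 5.61 in control and 6.15, 6.47, 6.47 and 6.27 in GRBATKO mice. GRBATKO values lay within the control range, and the difference was 0.23 (SE 0.19, 95% interval -0.19 to 0.65). It was 0.07 without control 4 and -0.08 without control 1 and control 4. Cxcl10 measured 3.73, 3.69, 3.89 and 3.54 in control and 3.14, 3.50, 3.68 and 3.74 in GRBATKO mice, an overlapping pair of groups with a difference of -0.20 (SE 0.14). Cxcl11 differed by 0.06 (SE 0.11).

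The ELR CXC ligands, named for a motif of glutamate, leucine and arginine and known for recruiting neutrophils through Cxcr2, were dim: 4 of 5 had means of 2.15 to 2.69, within the low range, and Cxcl1 reached 4.11. Their differences were -0.16 to 0.03, and all 5 intervals lay within 1.5-fold. Cxcl2, whose promoter is shown above, measured 2.29, 2.61, 2.28 and 2.49 in control and 2.28, 2.11, 2.38 and 2.25 in GRBATKO mice. The groups overlapped, with a difference of -0.16 (SE 0.10). Cxcl1 differed by -0.05 (SE 0.11, 95% interval -0.30 to 0.20) and Cxcl3 by 0.03 (SE 0.11). Of the 9 neutrophil markers 4 were above the low reference.

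Ligands of epithelia and mucosa included 2 of brighter intensity. Ccl27a, a skin chemokine that binds Ccr10, measured 6.23, 4.90, 6.04 and 6.30 in control and 5.83, 5.76, 6.04 and 5.74 in GRBATKO mice. Control 2 lay more than 1 log2 unit below the other control mice, and the difference moved from -0.03 (SE 0.27) to -0.35 (SE 0.10, limma adjusted p = 0.360) without it. The RefSeq annotation holds a copy, Ccl27b, and how the probes divide between them is not known here, so the value is uncertain. Ccr10 measured 3.91, 4.39, 3.90 and 3.47 in control and 4.02, 3.74, 3.84 and 3.71 in GRBATKO mice (-0.09, SE 0.17), and control 2, lowest for Ccl27a, was its highest mouse. Ccl25, a thymus and gut chemokine, measured 5.69, 5.54, 5.52 and 5.51 in control and 5.52, 5.43, 5.78 and 5.70 in GRBATKO mice, with a difference of 0.04 (SE 0.09). Ccl20 and Ccl28 differed by 0.03 (SE 0.08) and 0.02 (SE 0.08). Of the T cell attracting ligands, Ccl17 and Ccl22, which share Ccr4, differed by -0.07 (SE 0.10) and -0.10 (SE 0.14).

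Cx3cl1, a membrane-bound ligand that tethers monocytes, measured 5.58, 5.47, 5.53 and 5.72 in control and 5.54, 5.31, 5.44 and 5.35 in GRBATKO mice. GRBATKO 2, 3 and 4 lay below all control mice, and the difference was -0.17 (SE 0.08, 95% interval -0.36 to 0.02, limma adjusted p = 0.625). Its receptor Cx3cr1, a marker of monocytes and resident macrophages, measured 4.67, 4.45, 4.66 and 4.80 against 4.42, 4.92, 4.71 and 4.48, which overlapped, with a difference of -0.01 (SE 0.12). Xcl1, a ligand from T and NK cells, and Xcr1, its receptor on cross-presenting dendritic cells, differed by 0.08 (SE 0.10) and 0.03 (SE 0.10).

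Receptors had lower intensities than ligands, with medians of 3.18 over all 22 and 3.80 over the 34 ligands, and none of the 18 signalling receptors reached an unadjusted p under 0.05. Their differences ran from -0.24 (Cxcr1) to 0.21 (Cxcr3). Cxcr4, the receptor of Cxcl12, measured 4.97, 5.33, 4.75 and 5.18 in control and 5.10, 5.52, 4.77 and 4.90 in GRBATKO mice. The groups overlapped, with GRBATKO 2 above all control mice and control 3 below all GRBATKO mice, and a difference of 0.01 (SE 0.18, 95% interval -0.38 to 0.41), which took the other sign under quantile normalization (-0.01). Ccr2, the receptor of inflammatory monocytes, differed by -0.04 (SE 0.11, 95% interval -0.29 to 0.20). Ccr1l1, a receptor-like relative of Ccr1, measured 2.47, 2.38, 2.87 and 2.55 in control and 2.17, 2.44, 2.32 and 2.48 in GRBATKO mice, inside the low range, with a difference of -0.21 (SE 0.12). Of the 10 CC receptors 8 had a lower mean in GRBATKO tissue, and of the 6 CXC receptors 2.

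One mouse stood out among the receptors. GRBATKO 2 held the highest value of the 8 mice for 8 of the 22 receptors (Cxcr3, Ccr7, Cxcr4, Cxcr6, Cxcr5, Ccr9, Ccr6 and Cx3cr1), and for 2 of the 34 ligands (Ccl5 and Cxcl12). Of these 8, Cxcr3, Cxcr6, Cxcr5, Ccr9 and Ccr6 had means within the low range. Control 1 came next, with 4 receptors, and the T cell receptors Ccr4 and Ccr8 were highest in control 1. Ccr7, which guides T cells and dendritic cells to lymph nodes, was 4.83 in GRBATKO 2 and 4.09 to 4.11 in the other GRBATKO mice, against 4.24 to 4.49 in control mice. Cxcr3, found on activated T cells, was 3.49 in GRBATKO 2 and 3.28 in control 1, against 2.50 to 2.93 in the other 6. Cxcr5, the B cell receptor for Cxcl13, was 2.88 in GRBATKO 2 against 2.27 to 2.59 elsewhere, inside the low range.

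The lymphocyte markers had the same mouse at the top. The centred mean of 12 measured T cell markers was 1.0 in GRBATKO 2 and -0.24 to 0.05 in the other 7 mice, with 8 of 12 above the low reference. For 9 B cell markers it was 1.06 against -0.38 to 0.05, with 5 of 9 above. Their summed intensities were 7.43 to 7.75 in control and 7.48 to 8.76 in GRBATKO mice for T cells, and 7.40 to 8.26 and 7.36 to 9.15 for B cells (log2). Of the defining markers, Cd3g was 4.33 in GRBATKO 2 against 2.28 to 2.85 elsewhere, and Ms4a1 was 4.20 against 2.63 to 3.02. Their means over the 8 mice, 2.80 and 2.99, were within the low range. Among brighter T cell markers, Cd3e was 5.73 in GRBATKO 2 against 4.34 to 4.81. Trac was 6.48 in GRBATKO 2 and also high in GRBATKO 3 (5.58), against 3.83 to 4.49 elsewhere. Thy1 was highest in control 1 (5.39, against 5.31 in GRBATKO 2). The mean of 3 lymph node stroma markers, 1 of them above the low reference, was 0.52 in GRBATKO 2 against -0.31 to 0.27 elsewhere. Glycam1, a gene of lymph node venules, was 4.14 against 3.07 to 3.49. Cr2, which is also in the B cell list, was 3.14 against 2.04 to 2.54. Madcam1 did not stand apart, at 2.99 in GRBATKO 2 and 2.64 to 3.49 elsewhere. The mean of 7 dendritic cell markers, 4 of them above the low reference, was 0.22 in GRBATKO 2 against -0.13 to 0.07. NK cell markers stayed between -0.06 and 0.08 in all 8 mice, with 2 of 9 above the low reference. The part of these cells in the receptor values and in Cxcl13 was not tested; with the lymphocyte marker mean as a covariate, the Ccl5 difference was -0.13 (SE 0.14) and the Cxcr4 difference -0.09 (SE 0.15).

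**Figure D4:**
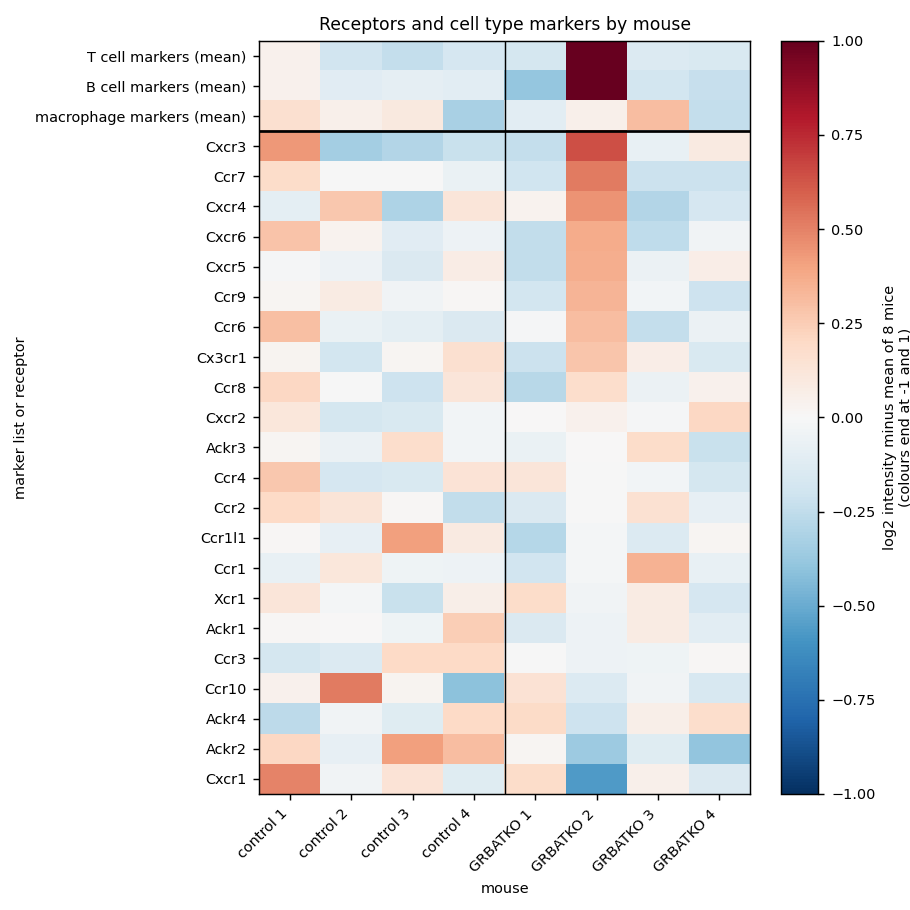
Colours give the log2 intensity of each of 22 receptors (rows, ordered by GRBATKO 2) and the mean of 3 marker lists (top rows) in each of 8 mice, minus the mean of the 8. GRBATKO 2 is the highest mouse in 8 receptors and in the T cell (1.0) and B cell (1.06) marker means, while macrophage markers are highest in GRBATKO 3 (0.31).

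The atypical receptors held the member of smallest p. Ackr2, which takes up and degrades inflammatory CC chemokines and is known from lymphatic endothelium, measured 3.87, 3.58, 4.07 and 3.97 in control 1 to 4 and 3.68, 3.30, 3.54 and 3.27 in GRBATKO 1 to 4. Control 2 and GRBATKO 1 crossed, and all other GRBATKO mice lay below all control mice. GRBATKO 2 (3.299) and GRBATKO 4 (3.269) were under the 95th percentile of the low reference, 3.30, so the difference may be compressed. Control tissue averaged 3.87 ± 0.21 (SD, n = 4). GRBATKO tissue averaged 3.45 ± 0.20 (SD, n = 4), 0.744 of control (log2 -0.43, SE 0.13, 95% interval -0.72 to -0.13), and did not pass (limma adjusted p = 0.442; two-sided exact permutation test, p = 0.0571). The centred mean of lymphatic endothelial markers was -0.22 to 0.29 in control and -0.35 to 0.28 in GRBATKO mice. Of these markers 4 of 6 were higher in GRBATKO tissue, and 5 of 6 were above the low reference. Their mean was lowest in GRBATKO 4, also the lowest mouse for Ackr2, but was 0.27 in GRBATKO 2, the next lowest for Ackr2. The part of these cells in the Ackr2 difference was not tested. The genes on either side, Higd1a and Cyp8b1, differed by -0.23 (SE 0.14) and -0.17 (SE 0.13). The measured genes 2 places away differed by 0.07 and 0.22, and those 3 places away by -0.11 and -0.02.

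Ackr3, the scavenger that shares Cxcl12 with Cxcr4, was the brightest receptor. It measured 6.81, 6.73, 6.97 and 6.76 in control and 6.72, 6.79, 6.97 and 6.57 in GRBATKO mice, an overlap with a difference of -0.05 (SE 0.10, 95% interval -0.28 to 0.17). Ackr1, which carries chemokines across venules and on red cells, differed by -0.11 (SE 0.09), and Ackr4, which removes ligands of Ccr7, by 0.11 (SE 0.12). Blood endothelial markers stayed within -0.05 to 0.10 in all 8 mice.

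The genes around the chemokine system were read through 3 lists. Of 14 measured chemokine-like factors, binding partners and processing enzymes, none passed in either direction, 9 had a higher mean and the median difference was 0.06. Smallest in p were Cmtm3, of a chemokine-like membrane family (-0.20, SE 0.09), and Rarres2, which codes for chemerin, an adipokine that attracts leukocytes (0.19, SE 0.10). Of 30 measured genes that carry receptor signals none passed, 17 were higher and the median difference was 0.02. At an unadjusted limma p under 0.05 there were 6, with 3 higher and 3 lower in GRBATKO tissue, against 8.62% of all probe sets. Arrb1, the arrestin that ends and redirects G protein-coupled receptor signals, measured 6.29, 6.11, 6.41 and 6.30 in control and 6.63, 6.55, 6.67 and 6.36 in GRBATKO mice (0.28, SE 0.10, limma adjusted p = 0.504). GRBATKO 4 alone overlapped with control mice. Dock2, which drives leukocyte movement, differed by 0.39 (SE 0.14). It measured 4.44, 4.24, 4.42 and 4.10 in control and 4.50, 5.01, 4.83 and 4.43 in GRBATKO mice. Of 15 measured genes of the pathways that induce chemokines, an inhibitor of NF-kappaB among them, none passed. In this list 10 were lower and the median difference was -0.04. Tnf differed by -0.44 (SE 0.19) and the interferon factor Irf1 by 0.19 (SE 0.10).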

How the data were processed

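RNA of brown fat from 4 control and 4 GRBATKO mice was measured on 1 array each. The authors summarised the arrays with RMA, per the submitters' processing notes, and deposited 1 intensity per probe set and array on a linear scale, as the positive, skewed values show. Log2 was taken here. RMA version, genome build and probe set definitions were not given in the sources used here. Precision is limited by the 8 arrays. The platform annotation named 20405 of 21115 probe sets. The RefSeq table (GRCm38.p6) matched all 20405.

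GRBATKO was set against control by limma's lmFit and eBayes (version 3.58.1, R 4.3.3; 6 residual and 3.46 prior degrees of freedom) over all 21115 probe sets, with Benjamini-Hochberg adjustment and a threshold of 0.05. Intervals are the fit's 95% intervals, unadjusted. Single members also had a two-sided exact permutation test of 70 arrangements, with a smallest p of 0.0286. The fit was tested on simulated data. Members, lists and alternatives were chosen with earlier results of these data known. Values by mouse are given for the 15 members of highest mean and the 12 of smallest p, which together are 24, and the 2 genes of smallest p of each of the 3 pathway lists are named, in part with single mice. Named outside that rule, after their values were seen, were Ccr7, Cxcr3, Cxcr5, Ccr10, Cd3g, Cd3e, Trac, Thy1, Ms4a1, Glycam1, Cr2, Madcam1, Higd1a and Cyp8b1 with values. The other members were named with differences only. Roles were assigned by hand. The labels do not say that replicate numbers pair the mice, and the main fit used no pairing. Deviations of same-numbered mice correlated at -0.0564 to 0.0924 over all probe sets, which cannot show whether mice were paired. Figures were drawn with matplotlib 3.10.9.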

Additional observations from a re-analysis of the deposited data

Results flagged for a closer look

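Among the 112 sets of 4 mice, that is, 56 members in each genotype, 6 had a mouse far from the other 3 (Dixon's ratio above its 95% critical value), and chance gives such a mouse in about 1 of 20 sets. GRBATKO 2 was high for Ccr7, at 4.83 against 4.11 for the next GRBATKO mouse. Control 1 was high for Ccl12 (4.29 against 3.70) and for Cxcr3 (3.28 against 2.62). GRBATKO 4 was low for Cxcl16 (4.79 against 5.03). Control 2 was high for Ccr1 (2.36 against 2.20) and control 4 for Cxcl15 (2.46 against 2.09), both within the low range.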

How the results depend on the processing

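No member passed in any of the 23 alternatives, where a threshold of 0.10 was 1 of them, and the 24 members given by mouse reached no adjusted p below 0.285 in limma (Ackr2, without control 2). Over all probe sets the share that passed was 0.0237% as reported and ran from 0.00474% (ordinary t statistic, replicate block) to 0.184% (flat probe sets left out). Ackr2 ranged from -0.52 to -0.30, Ccl12 from -0.70 to -0.38 (not tested with dim probe sets left out) and Cxcl13 from 0.89 to 1.56, each in the same direction throughout. The number at an unadjusted p under 0.05 was 1 with the ordinary t statistic (8.35% of all probe sets), 6 after repeated quantile normalization (8.38%), 5 with the lymphocyte marker mean as a covariate (7.87%) and 2 to 5 when 1 array was left out (6.48% to 10.8%). The replicate block gave 3 (8.21%), with a median difference of -0.04 and 0 past the threshold, and changed no call. Of the 4 mice, 1 correlated best with its own number. The number without overlap was 0 with dim probe sets left out (31 members remained), 11 without control 1 and control 4 (19.1% of all probe sets), 3 without control 3 and GRBATKO 4 (14%), the last chosen after the data were seen, and 1 to 4 when 1 array was left out. The median difference was 0.041 with flat probe sets left out, where 18 members remained, 0.024 without control 1 and control 4, and -0.056 to 0.0068 when 1 array was left out. Signs turned, never past the threshold, for Cxcr4 after quantile normalization (-0.014), with the lymphocyte covariate (-0.085) and without control 3 and GRBATKO 4 (-0.031), and for Ccl5 with the lymphocyte covariate (-0.13). Without control 1 and control 4 they turned for Cxcl14 (0.0092), Ccl11 (-0.033), Cxcl9 (-0.076), Ccl27a (0.37) and Cx3cr1 (0.077), and without control 3 and GRBATKO 4 for Ackr3 (0.060), Ccl27a (0.063), Ccl25 (-4.062e-05) and Cx3cr1 (0.040). With 1 array left out the ranges that crossed 0 were those of Cxcl14 (-0.12 to 0.058), Ccl27a (-0.35 to 0.12), Cxcr4 (-0.14 to 0.11), Ccl6 (-0.081 to 0.24), Cx3cr1 (-0.11 to 0.058), Ccl5 (-0.24 to 0.31), Ccl25 (-0.014 to 0.10) and Ackr3 (-0.12 to 0.010). The cause of these shifts was not tested, apart from fewer probe sets or mice where some were left out. Without detection calls, differences of Ccl12, of Ackr2 and of the 23 members in the low range may be compressed.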
